A study of Homo sapiens with 12 samples.

Results

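The ribosomal protein genes of the cytosolic ribosome were followed by RNA sequencing in SCC-15, an established human cell line of oral squamous cell carcinoma, grown in DMEM. Members were the protein-coding genes whose symbols are RPL or RPS followed by a number, together with RPLP0, RPLP1, RPLP2 and RPSA. Ribosomal S6 kinases, antisense genes and pseudogenes were left out. The rule found 91 of the 61044 IDs in the count table. Of these, 77 are canonical ribosomal proteins, 46 of the large and 31 of the small subunit, and 10 are paralogues with a name of their own (RPL3L, RPL7L1, RPL10L, RPL22L1, RPL26L1, RPL36AL, RPL39L, RPS27L, RPS4Y1 and RPS4Y2). Another 3 are readthrough genes, which join a ribosomal protein gene to its neighbour, and 1, RPS19BP1, codes for a protein that binds a ribosomal protein and is not itself a ribosomal protein. All 77 canonical genes and 88 of the 91 members passed the filter on low counts. RPL10L, RPS4Y1 and RPS4Y2 did not.

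The question behind the samples is how gene expression differs in cells depleted of FMOD, the gene for fibromodulin, a matrix proteoglycan that binds collagen. Cells with a negative-control short hairpin RNA (NC) were set beside cells with 1 of 3 short hairpins against FMOD, named shRNA1, shRNA2 and shRNA3, with 3 libraries in each of the 4 groups (12 in all) and a harvest after 48 hours. All groups share the SCC-15 background and the presence of a hairpin, and no untreated parental cells were analysed here. The labels do not say whether a hairpin line was a clone or a pool, nor whether the 3 libraries of a group came from separate cultures, so p-values measure only the spread between these libraries, which may be technical.

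A ribosome is built from ribosomal RNA and a fixed set of ribosomal proteins, each needed in about 1 copy, apart from the acidic P proteins of the stalk. In mammalian cells the mRNAs of these proteins are among the most abundant. Most begin at a C followed by a run of pyrimidines, the 5′ terminal oligopyrimidine (TOP) tract, through which mTOR and LARP1 set their translation, while MYC raises the transcription of many of them and of the factors that assemble ribosomes. Free RPL5 and RPL11, bound to 5S ribosomal RNA, hold back MDM2 and so stabilise p53. A few ribosomal proteins have paralogues (RPL39L, RPL22L1, RPL3L and others) that can stand in for the parent protein and are often high in particular tissues. Most canonical genes have also left processed pseudogenes across the genome, near-identical copies to which its reads can be assigned.

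Library totals were 17857766 to 18311598 counts in NC, 18821228 to 19567192 with shRNA1, 17349957 to 17825043 with shRNA2 and 17286934 to 18960414 with shRNA3. Libraries 1 and 2 of shRNA3 stood apart from the other 10, with TMM scaling factors, which balance libraries of different make-up, of 0.771 and 0.795 against 0.979 to 1.11 elsewhere, so the main results that rest on them are also given without them, in a fit where the lone shRNA3 library is assumed to vary like the other groups. Levels are given as CPM, counts scaled to library size with these factors. FMOD had 2, 2 and 3 counts in the NC libraries and 0 in all 9 shRNA libraries (exact permutation test of log2(CPM + 1), two-sided p = 0.00909 over 220 splits), which is too few reads for a fold change. The 10 squamous epithelium markers, all detected, summed to 2906 to 3095 in NC, 2757 to 3227 with shRNA1, 3337 to 3408 with shRNA2 and 2938 to 3859.6 with shRNA3 (CPM), with 6 of the 10 higher and 3 lower for the mean of the hairpins (edgeR, adjusted p under 0.05) and a median log2 fold change of 0.63. KRT5, 1 of the 3 lower, averaged 1008 CPM ± 42.4 in NC, 21.4 ± 6.7 with shRNA1, 80.1 ± 2.47 with shRNA2 and 74.8 ± 22 with shRNA3 (mean and SD, n = 3 each). Markers of other cell types gave lower sums. Fibroblast markers (3 of 7 passed the filter) summed to 45.8 to 49.5 in NC, 14.9 to 20.9 with shRNA1, 43.3 to 46.9 with shRNA2 and 32.4 to 85.5 with shRNA3. Endothelial markers (3 of 4) summed to 17.6 to 23.1 in NC, 3.88 to 5.88 with shRNA1, 6.86 to 8.45 with shRNA2 and 8.67 to 13.2 with shRNA3. Leukocyte markers (1 of 4) summed to 53.8 to 72 in NC, 43.8 to 96.3 with shRNA1, 80.1 to 85.7 with shRNA2 and 109 to 235 with shRNA3. Melanocyte markers (1 of 3) summed to 6.03 to 8.36 in NC, 1.29 to 2.13 with shRNA1, 2.75 to 3.6 with shRNA2 and 3.57 to 9.03 with shRNA3. Neural markers (3 of 4) summed to 30.7 to 50.1 in NC, 83.8 to 92.7 with shRNA1, 47.1 to 52.8 with shRNA2 and 38.7 to 81 with shRNA3. DCN, THY1, PTPRC and CHGA were among the markers at 0 in all NC libraries. KDR, TYR and NEFL were at 0 in all shRNA libraries, LUM with shRNA1 and shRNA3, COL1A2, COL3A1 and DCN with shRNA2, and CD3E with shRNA1 and shRNA2. The part of these markers in the results was not tested. In such bulk samples fewer cells of a type and less RNA per cell cannot be told apart.

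The 77 canonical genes together took a larger share of all counts in shRNA3 libraries 1 and 2 than in the other 10 libraries. The share was 6.36, 6.93 and 6.82% in the NC libraries, 6.48, 6.46 and 6.3% with shRNA1, 6.11, 6.01 and 6.25% with shRNA2 and 7.59, 8.23 and 5.65% with shRNA3. The first and second shRNA3 libraries were the 2 highest of the 12 and shRNA3 library 3 the lowest. As mean and SD the shares were 6.7% ± 0.303, 6.42% ± 0.0994, 6.12% ± 0.119 and 7.16% ± 1.34 (n = 3 each). Large-subunit genes held between 59.2% and 60.7% of the canonical counts in every library. The 78 genes for mitochondrial ribosomal proteins, which build the separate ribosome of that organelle, held much smaller shares of all counts: 0.416, 0.442 and 0.423% in NC, 0.544, 0.558 and 0.522% with shRNA1, 0.512, 0.510 and 0.522% with shRNA2 and 0.334, 0.353 and 0.527% with shRNA3. In that set, shRNA3 libraries 1 and 2 were the lowest of the 12.

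Per length, canonical genes covered a 19.8-fold range of levels. Dividing CPM by transcript length in kilobases (CPM per kb, mean of the 12 libraries), the median canonical gene stood at 1056. The highest were RPS2, near the mRNA channel of the small subunit, at 3594, RPL35, at the rim of the polypeptide exit tunnel, at 2757, and RPLP1, an acidic stalk protein, at 2623. The lowest were RPS26 at 182, RPL22 at 236 and RPS29 at 327. The transcript length used was the median of a gene's coding transcripts in the annotation, and reads assigned to pseudogene copies are missing from these levels.

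Against NC, in the fit of all 12 libraries, a minority of the canonical genes was called with each hairpin. Under TMM scaling more of them rose than fell in that fit. Both the number of calls and their direction depended on which libraries entered the fit, as given below. Counts were scaled by TMM and tested across 17532 genes with edgeR's quasi-likelihood test, with Benjamini-Hochberg adjustment over all of them and a threshold of 0.05. With shRNA1, 14 of 77 rose (18.2%, against 26.8% of all genes tested) and 5 fell (6.49%, against 30.6%). With shRNA2, 11 rose (14.3%, against 24.6%) and 5 fell (6.49%, against 28.4%). For both hairpins the called shares of the canonical genes lay under those of all genes in both directions in this fit, which is a description with no test. With shRNA3, 31 rose (40.3%, against 26.4%) and 2 fell (2.6%, against 27.6%). The median log2 fold change of the canonical genes was 0.09, -0.03 and 0.46 for shRNA1, shRNA2 and shRNA3, beside -0.02, -0.05 and -0.03 over all genes tested. These comparisons share the NC libraries. The split of higher to lower calls depended on the scaling. With raw library totals in place of TMM it was 16 to 17, 14 to 21 and 21 to 6 for shRNA1, shRNA2 and shRNA3, and with libraries scaled to an equal sum of the canonical genes it was 24 to 18, 22 to 21 and 21 to 18. In the same order, all genes gave 22.1 to 31.9%, 19.5 to 31.1% and 18.3 to 33.9% with raw totals, and 19 to 28%, 18.6 to 25.6% and 15.4 to 29.9% with the equal canonical sum. The equal canonical sum removes any shift of the family as a whole, so its near-even splits are largely set by the scaling itself.

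When the 3 hairpins were averaged and set against NC, 21 canonical genes rose (27.3%, against 27.9% of all genes) and 4 fell (5.19%, against 32.2%), with a median of 0.16. By subunit, 13 of 46 large-subunit genes rose and 2 fell, and 8 of 31 small-subunit genes rose and 2 fell. Canonical genes ranged from -1.41 to 1.38, with an SD of 0.481 over genes, beside an SD of 2.43 over all genes tested. For this mean the split was 19 to 17 with raw totals, where the median over all genes was -0.21, and 24 to 22 with the equal canonical sum (all genes, 21.2 to 36.6% and 19.4 to 32.2%). The split with the equal canonical sum is again largely set by that scaling.

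In all 3 hairpins, 10 canonical genes rose (13%, against 16.0% of all genes) and 2 fell (2.6%, against 19.7%). The rising genes were RPL9, RPL14, RPL15, RPL29, RPL32 and RPL39 of the large subunit and RPS3A, RPS4X, RPS26 and RPSA of the small subunit. The RPL9 call was lost when reads of its pseudogenes were added. The falling genes, RPS3 and RPS6, both belong to the small subunit. For each of these 12 genes, every shRNA library lay on 1 side of every NC library. As the genes were chosen by their calls in these same libraries, this adds no support, and no share over all genes is given.

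**Figure D1:**
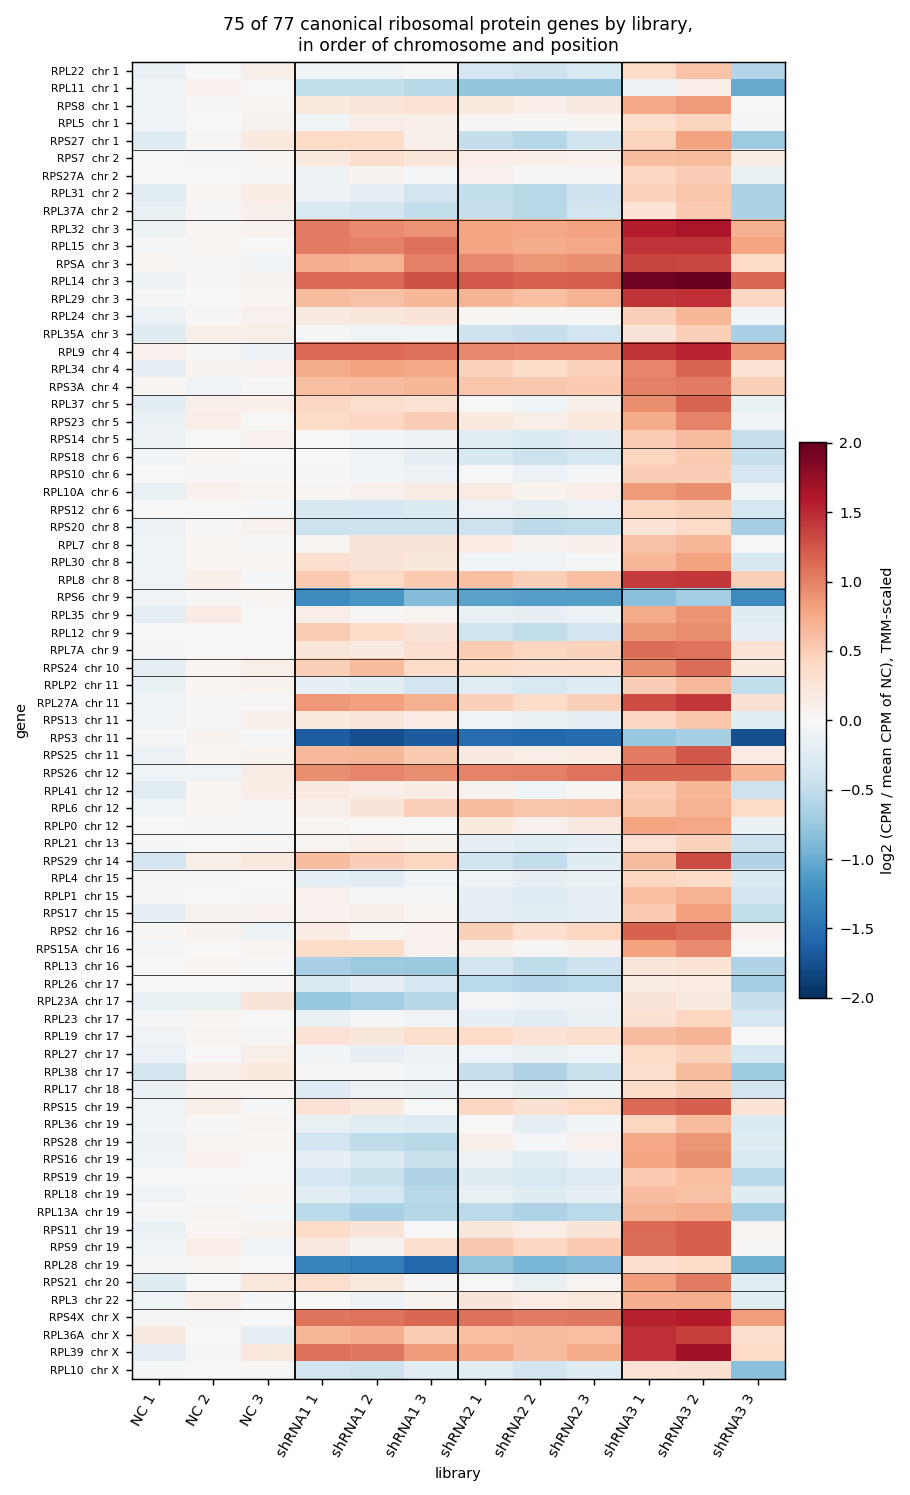
Heat map of 75 of the 77 canonical genes (rows, ordered by chromosome and position) in the 12 libraries (columns), with colour showing the log2 ratio of TMM-scaled CPM to the mean of the NC libraries. The columns of shRNA3 libraries 1 and 2 are higher over most rows than any other column, and RPS3 and RPS6 are lower than NC in all 9 shRNA columns.

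**Figure D2:**
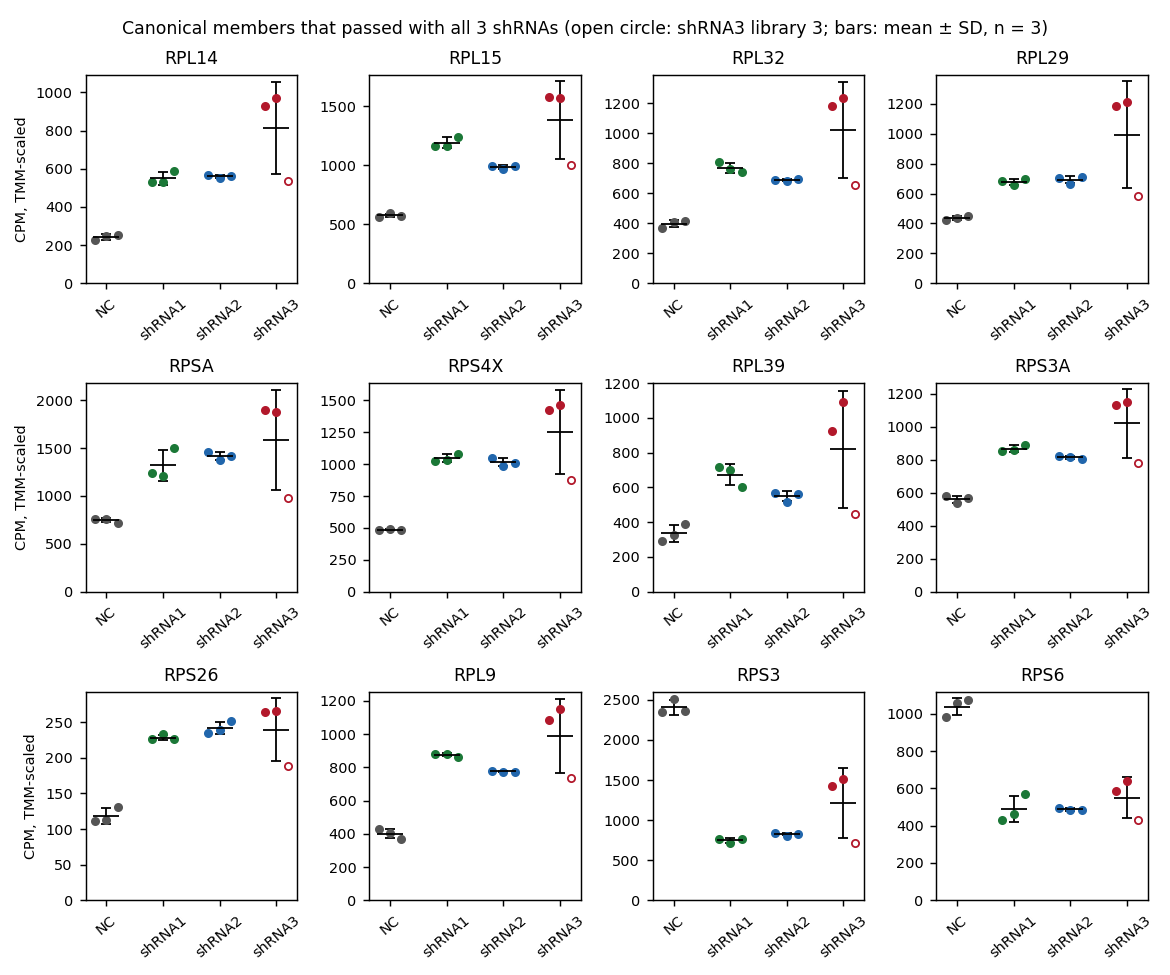
TMM-scaled CPM of the 12 canonical genes that changed with all 3 shRNAs, 1 panel for each gene, on linear axes that start at 0, with 1 point for each library, an open circle for shRNA3 library 3 and bars at the mean ± SD of each group (n = 3). RPS3 and RPS6 lie lower in every shRNA library than in NC and the other 10 genes higher, and shRNA3 library 3 lies below libraries 1 and 2 in each panel.

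RPL14, a protein of the large subunit (ENSG00000188846, chr3:40457292-40468587, plus strand, GRCh38), was the canonical gene that rose most. It stood at 226, 247 and 254 CPM in the NC libraries, 529, 532 and 587 with shRNA1, 567, 549 and 562 with shRNA2 and 931, 971 and 538 with shRNA3. All 9 shRNA libraries were above all 3 NC libraries. The rise was 2.27-, 2.31- and 3.35-fold with shRNA1, shRNA2 and shRNA3 (log2 fold changes 1.18, 1.21 and 1.75, edgeR adjusted p = 0.000384, 0.000355 and 2.88e-05). RPS4X, the copy of the small-subunit protein RPS4 on the X chromosome (ENSG00000198034, chrX:72255679-72277300, minus strand), came next. Its libraries gave 481, 494 and 486 CPM in the NC libraries, 1026, 1031 and 1080.4 with shRNA1, 1047, 986 and 1012 with shRNA2 and 1422, 1461 and 874 with shRNA3. Here too the groups did not overlap, and the rise was nearly equal for the 3 hairpins, at 2.15-, 2.08- and 2.57-fold (log2 1.10, 1.06 and 1.36, edgeR adjusted p = 0.000344, 0.000479 and 8.78e-05).

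RPS3 and RPS6 moved in the opposite direction. RPS3 (ENSG00000149273, chr11:75399486-75422280, plus strand) lines the mRNA entry channel of the small subunit and also has a role in DNA repair. It stood at 2348, 2513 and 2357 CPM in the NC libraries, 765, 714 and 760.4 with shRNA1, 837, 807 and 831 with shRNA2 and 1425, 1512 and 714 with shRNA3. Every shRNA library was below every NC library, and the shRNA3 pair of libraries 1 and 2 lay between the NC libraries and the others. The level was 3.22-fold lower with shRNA1, 2.92-fold with shRNA2 and 1.98-fold with shRNA3 (log2 -1.69, -1.54 and -0.98, edgeR adjusted p = 0.000111, 0.000217 and 0.00389). RPS6 (ENSG00000137154, chr9:19375715-19380254, minus strand) is the protein whose phosphorylation by S6 kinase is a common readout of mTOR signalling. It stood at 986, 1059 and 1073 CPM in the NC libraries, 433, 464 and 570.0 with shRNA1, 497, 484 and 484 with shRNA2 and 584, 641 and 429 with shRNA3. The groups did not overlap and the drop was alike for the hairpins, 2.12-, 2.13- and 1.89-fold (log2 -1.09, -1.09 and -0.91, edgeR adjusted p = 0.000221, 0.000235 and 0.000773).

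The start sites of these 4 genes are shown because the TOP tract is the sequence mark of the family, and the 2 strongest rising and 2 strongest falling genes can be set side by side. Each window runs from 60 bases before the annotated start to 15 bases from it (RefSeq, GRCh38.p14), 5′ to 3′, and capitals mark a run of at least 5 bases that begins with C exactly at the annotated start and holds only C and T.
RPL14, chr3:40457279-40457353, GRCh38.p14, plus strand: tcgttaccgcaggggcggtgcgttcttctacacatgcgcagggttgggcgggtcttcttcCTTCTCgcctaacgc
RPS4X, chrX:72277234-72277308, GRCh38.p14, minus strand: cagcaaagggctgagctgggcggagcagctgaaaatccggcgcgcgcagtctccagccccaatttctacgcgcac
RPS3, chr11:75399458-75399532, GRCh38.p14, plus strand: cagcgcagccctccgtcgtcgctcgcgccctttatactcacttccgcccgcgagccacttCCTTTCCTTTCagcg
RPS6, chr9:19380222-19380296, GRCh38.p14, minus strand: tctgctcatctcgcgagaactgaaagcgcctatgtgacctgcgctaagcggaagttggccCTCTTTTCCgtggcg
RPL14, which rose, and RPS3 and RPS6, which fell, all carry such a tract, while the annotated RPS4X start does not. Of the canonical genes with a RefSeq promoter in the table, 46 of 62 held a tract by this rule (74.2%), against 2 of 8 paralogues (25%), 6 of 69 mitochondrial ribosomal protein genes (8.7%) and 970 of 15312 protein-coding genes (6.33%). A tract depends on the exact start annotated, and its absence from a window says only that these letters are not there.

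The other genes that rose with all hairpins included a group on chromosome 3. RPL15 (ENSG00000174748, chr3:23916545-23924374, plus strand), a core protein of the large subunit, stood at 564, 591 and 573 CPM in the NC libraries, 1166, 1159.7 and 1243 with shRNA1, 993, 965 and 991 with shRNA2 and 1578, 1566 and 1001 with shRNA3. RPL32 (ENSG00000144713, chr3:12834485-12841588, minus strand) stood at 369, 409 and 415 CPM in the NC libraries, 806, 762 and 742 with shRNA1, 688, 679.9 and 695 with shRNA2 and 1179, 1233 and 652 with shRNA3. RPSA (ENSG00000168028, chr3:39406689-39412542, plus strand), the small-subunit protein also known as a laminin receptor, stood at 764, 757 and 719.7 CPM in the NC libraries, 1239.8, 1213 and 1505 with shRNA1, 1458, 1374 and 1422 with shRNA2 and 1899.5, 1877 and 981 with shRNA3. In all 3 genes the shRNA libraries lay wholly above the NC libraries, and shRNA3 library 3 was close to the shRNA1 and shRNA2 libraries or below them. For the mean of the hairpins RPL15 rose 2.04-fold (log2 fold change 1.03, SE 0.15, edgeR adjusted p = 9.67e-05), RPL32 2.05-fold (log2 fold change 1.03, SE 0.18, edgeR adjusted p = 0.000370) and RPSA 1.92-fold (log2 fold change 0.94, SE 0.19, edgeR adjusted p = 0.00122). RPL29, with a median of 695 CPM over the 9 shRNA libraries (lowest 583, highest 1214) against 426, 438 and 451 CPM in NC, rose by less (log2 fold change 0.82, SE 0.19, edgeR adjusted p = 0.00324). The RPL29 call with shRNA1 or shRNA2 was lost in 14 of 69 alternative fits (each setting with each hairpin).

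RPS26 (ENSG00000197728, chr12:56041351-56044697, plus strand), which contacts the mRNA at the exit site, had the lowest level per length of the canonical genes and rose almost equally in all hairpins. It stood at 111, 113 and 130.5 CPM in the NC libraries, 226, 233 and 226 with shRNA1, 235, 239 and 252 with shRNA2 and 265, 266 and 188 with shRNA3. The NC libraries lay below the rest, and the log2 fold changes were 0.95, 1.03 and 1.02 (edgeR adjusted p = 0.000211, 0.000127 and 0.000145). RPL39 (ENSG00000198918, chrX:119786504-119791643, minus strand), a very short protein of the exit tunnel wall, stood at 293, 327 and 388 CPM in the NC libraries, 718, 702 and 604 with shRNA1, 569, 517 and 562 with shRNA2 and 923, 1094 and 445 with shRNA3. The groups did not overlap, but the NC libraries were spread and the smallest shRNA value was shRNA3 library 3. Its log2 fold changes were 1.01, 0.71 and 1.29 (edgeR adjusted p = 0.00721, 0.0413 and 0.00182), and the call with shRNA2 was lost in 10 of 69 alternative fits. RPS3A, on the small subunit, changed least of the rising genes: 578, 537 and 569 CPM in NC against lowest 782, median 851 and highest 1153 CPM over the 9 shRNA libraries (log2 fold change 0.68, SE 0.13, edgeR adjusted p = 0.000877).

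Further calls were these. Beside the 10 genes above, RPL27A, RPL34, RPL36A and RPS25 rose with shRNA1, and their log2 fold changes with shRNA1, shRNA2 and shRNA3 were 0.80, 0.44 and 1.09 for RPL27A, 0.77, 0.43 and 0.86 for RPL34, 0.63, 0.61 and 1.14 for RPL36A and 0.62, 0.16 and 0.89 for RPS25. RPS25, which ribosomes need for some forms of internal initiation, shares 31% of its exon bases with TRAPPC4, and its call with shRNA1 was lost on leaving out any NC library or shRNA1 library 1 or 2. RPL6 rose with shRNA2 (0.28, 0.59 and 0.55). RPL13 fell with shRNA1 (-0.71, -0.43 and 0.03), RPL23A too (-0.67, -0.08 and 0.02, lost without NC library 3), and RPL26 with shRNA2 (-0.26, -0.56 and -0.07). Their shRNA3 values near 0 rested on shRNA3 libraries 1 and 2. Without that pair the shRNA3 value was -0.57 for RPL13, -0.43 for RPL23A and -0.63 for RPL26. For the mean of the hairpins, RPL6, RPL7A, RPL8, RPL19, RPL27A, RPL34, RPL36A, RPS9, RPS15, RPS24 and RPS25 rose beside the 10, at 0.36 to 0.80 on the log2 scale. None of these 11 passed for all 3 hairpins, and the RPL36A call for the mean was lost when reads of its pseudogenes were added.

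RPL28 was the next falling gene by its adjusted p, and shRNA1 and shRNA3 differed by -1.47 log2 units there (SE 0.28, edgeR adjusted p = 0.00677). RPL28 (ENSG00000108107, chr19:55385345-55403250, plus strand), a large-subunit protein, stood at 1094, 1154 and 1129.8 CPM in the NC libraries, 449, 430.2 and 378 with shRNA1, 652, 594 and 615 with shRNA2 and 1427, 1472 and 573 with shRNA3. With shRNA1, shRNA2 and shRNA3 library 3 it was below NC, whereas shRNA3 libraries 1 and 2 were above NC. It fell with shRNA1 (log2 -1.43, edgeR adjusted p = 0.00120) and shRNA2 (log2 -0.86, edgeR adjusted p = 0.0217), and the shRNA3 value was 0.04 (edgeR adjusted p = 0.916). The shRNA2 call was lost without NC library 2 or 3 or any 1 of the shRNA2 libraries. In the fit without shRNA3 libraries 1 and 2 the shRNA3 value was -0.94 (edgeR adjusted p = 3.03e-05) and the difference between shRNA1 and shRNA3 was -0.47 (edgeR adjusted p = 0.0269).

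The higher values of the family with shRNA3 lay in libraries 1 and 2. In those libraries 77 of 77 canonical genes were higher than in shRNA3 library 3 after TMM scaling, with a median log2 difference of 0.94 and a range from 0.24 to 1.6. With raw totals 75 of 77 were higher, with a median of 0.5 beside -0.40 over all genes tested. The gap was largest for RPS29, a zinc-binding small-subunit protein, at 1.6, for RPL13A at 1.41 and for RPS27 at 1.37. RPL13A, which also takes part in an interferon-induced control of translation, stood at 2127, 2271 and 2145 CPM in the NC libraries, 1503, 1384 and 1465 with shRNA1, 1510.0, 1419 and 1497 with shRNA2 and 3493, 3619.6 and 1341 with shRNA3, so that the shRNA3 libraries lay on both sides of the NC range. These values are a description of single libraries, with no test.

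Short transcripts as a class were higher in the same pair of libraries. Canonical genes have a median transcript length of 750.5 bases. Among other genes under 1000 bases, 63.5% of 2278 were higher in shRNA3 libraries 1 and 2 than in library 3, with a median log2 difference of 0.45. Among 4638 other genes of 1000 to 2000 bases, 50.3% were higher, with a median of 0.006. The median was -0.13 for genes of 2000 to 4000 bases. Mitochondrial ribosomal protein genes, with a median length of 1137 bases, differed: 25 of 78 were higher and the median was -0.32. The part of transcript length in the shRNA3 result was not tested beyond these values and the length-corrected fit given next.

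Leaving out shRNA3 libraries 1 and 2 turned the direction for shRNA3: 16 canonical genes then rose and 32 fell, with a median log2 fold change of -0.18. Over all genes that fit called 28.1% higher and 28.8% lower with shRNA3, with a median of -0.09. It called 31 canonical genes higher and 19 lower with shRNA1 (all genes, 34.3 and 37%), 24 and 23 with shRNA2 (32.1 and 36%), and 25 and 33 for the mean of the hairpins (34 and 39%). Without library 3 instead, 72 of 77 were called higher with shRNA3 and 2 lower, beside 32.3 and 40.7% of all genes and a median over all genes of -0.19. The 12 genes that changed with all hairpins kept their direction for the mean in both fits: without shRNA3 libraries 1 and 2, RPL14 stood at 1.20, RPS4X at 1.02, RPS3 at -1.64 and RPS6 at -1.13 on the log2 scale. Corrected for GC content and transcript length, 34 canonical genes were higher and 3 lower with shRNA3, beside 29.5 and 26.3% of all genes and a median over all genes of 0.07.

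Between hairpins, few canonical genes passed the test. Of 77, 1 was higher with shRNA1 than with shRNA2 and 0 lower (DESeq2's Wald test called 1 in each direction, and 17.3% of all genes), beside 12.3% of all genes called in either direction by edgeR. In shRNA1 against shRNA3, 0 were higher and 16 lower (20.8%, beside 30.0% of all genes). In shRNA2 against shRNA3, 1 was lower and 0 higher by edgeR (beside 8.34% of all genes), and DESeq2 called 18 lower (beside 14.6% of all genes). Without shRNA3 libraries 1 and 2 these counts became 20 higher and 11 lower for shRNA1 against shRNA2 (all genes, 19.1 and 17.8%), 18 and 1 for shRNA1 against shRNA3 (3.22 and 4.88%), and 1 and 0 for shRNA2 against shRNA3 (0.571 and 0.707%), so that the direction of the shRNA1 and shRNA3 comparison turned. The 16 genes lower with shRNA1 than with shRNA3 included RPL7A, RPL8, RPL13, RPL13A, RPL14, RPL18, RPL23A, RPL28, RPS2, RPS3, RPS15, RPS16, RPS19 and RPS28. RPS2 stood at 2678, 2761 and 2440.4 CPM in the NC libraries, 2909, 2709 and 2783 with shRNA1, 3643, 3295 and 3531 with shRNA2 and 5953, 5674 and 2796 with shRNA3. Its shRNA3 libraries 1 and 2 were the highest of the 12, and its difference between shRNA1 and shRNA3 was -0.78 (SE 0.24, edgeR adjusted p = 0.0337), a call lost on leaving out any library but shRNA2 library 3 or shRNA3 library 3. It was -0.01 without shRNA3 libraries 1 and 2 (edgeR adjusted p = 0.975).

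RPL12, which anchors the stalk to the large subunit (ENSG00000197958, chr9:127447674-127451405, minus strand), was the canonical gene called both between shRNA1 and shRNA2 and between shRNA2 and shRNA3. It stood at 919.5, 933 and 933 CPM in the NC libraries, 1317, 1201 and 1111 with shRNA1, 708, 663 and 711 with shRNA2 and 1713, 1773 and 824 with shRNA3. The shRNA2 libraries were the lowest of all 12, and the shRNA1 libraries lay above NC. The differences were 0.80 log2 units for shRNA1 against shRNA2 (SE 0.24, edgeR adjusted p = 0.0498, a call lost with DESeq2 size factors and on leaving out any library but shRNA3 library 2 or 3) and -1.05 for shRNA2 against shRNA3 (SE 0.24, edgeR adjusted p = 0.0347). The second of these was lost on leaving out any library but shRNA1 library 3 or shRNA3 library 3, and was -0.26 without shRNA3 libraries 1 and 2 (edgeR adjusted p = 0.259). RPL23A, a docking site at the exit tunnel, was lowest with shRNA1, at 373, 375 and 494 CPM in the NC libraries, 246, 259 and 279 with shRNA1, 406, 387 and 383 with shRNA2 and 493, 469 and 301 with shRNA3. Its shRNA1 libraries did not overlap any other group. Its difference was -0.59 for shRNA1 against shRNA2 (edgeR adjusted p = 0.0661, next after RPL12), and its difference from shRNA3 was -0.69 (SE 0.19, edgeR adjusted p = 0.0220) and -0.22 without shRNA3 libraries 1 and 2 (edgeR adjusted p = 0.421). The pseudogene RPL23AP42, on chromosome 3, is identical to the RPL23A transcript at 469 of 471 aligned bases. It had 241, 276 and 182 CPM in NC, 207, 217 and 234 with shRNA1, 186, 179 and 185 with shRNA2 and 237, 318 and 167 with shRNA3. The part of read assignment between RPL23A and this copy was not tested. For shRNA2 against shRNA3, RPS25 came next after RPL12 (-0.73, edgeR adjusted p = 0.0586). RPS28, a small-subunit protein near the mRNA exit site, stood at 462, 519 and 511 CPM in the NC libraries, 383, 349.8 and 338 with shRNA1, 532, 487 and 527 with shRNA2 and 853, 920.4 and 422 with shRNA3, with shRNA1 below every NC library. It was 2.05-fold lower with shRNA1 than with shRNA3 (log2 -1.04, edgeR adjusted p = 0.0117), a call lost at -0.26 without shRNA3 libraries 1 and 2 (edgeR adjusted p = 0.198). Of the RPS28 exon bases, 27.5% overlap KANK3 on the other strand, whose level averaged 1.7 CPM.

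Members of 1 functional group within the ribosome differed in their calls. Of the 5S ribonucleoprotein proteins, RPL5 stood at 766, 805 and 849.6 CPM in NC against lowest 764, median 827 and highest 1101 CPM over the 9 shRNA libraries (log2 fold change 0.12, SE 0.12, edgeR adjusted p = 0.416). RPL11, its partner, had 809, 915 and 865 CPM in the NC libraries, 612, 612 and 588 with shRNA1, 507, 498 and 500.3 with shRNA2 and 799.8, 950.3 and 429 with shRNA3. The groups overlap through shRNA3 libraries 1 and 2, and RPL11 fell for the mean (log2 fold change -0.52, SE 0.18, edgeR adjusted p = 0.0283) and with shRNA2 (log2 -0.78, edgeR adjusted p = 0.0135). Both calls were lost without shRNA2 library 3, and that for the mean without any 1 of the NC libraries. None of the 4 stalk genes passed for the mean by edgeR in the fit of all 12 libraries, with RPLP0 at 0.24, RPLP1 at 0.07, RPLP2 at -0.07 and RPL12 at 0.20 on the log2 scale. Without shRNA3 libraries 1 and 2 RPLP0 stood at 0.03, RPLP1 at -0.16, RPLP2 at -0.32 and RPL12 at -0.05 for the mean. For shRNA3 against NC, RPL12 alone of the 4 passed (log2 0.63, edgeR adjusted p = 0.0426), a call lost on leaving out any library but shRNA2 library 3 or shRNA3 library 3, and without shRNA3 libraries 1 and 2 its value was -0.14. At the exit tunnel and its rim, 2 of 8 genes rose for the mean (25%, beside 27.9% of all genes), RPL39 and RPL19 (log2 fold change 0.36, SE 0.14, edgeR adjusted p = 0.0481), and none fell in the fit of all 12 libraries. This depended on shRNA3 libraries 1 and 2. Without them the mean was 0.73 for RPL39 and 0.23 for RPL19 on the log2 scale. The other genes of the group were then negative: RPL26 -0.47, RPL31 -0.42, RPL23A -0.38, RPL17 -0.20, RPL4 -0.17 and RPL35 -0.08.

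Among the 7 paralogues with enough counts, RPL39L and RPL3L fell for the mean of the hairpins and none rose (2 of 7 lower, beside 32.2% of all genes). RPL39L (ENSG00000163923, chr3:187120948-187180908, minus strand) is a close paralogue of RPL39 known from testis, embryonic stem cells and some cancers. It stood at 47.4, 45 and 41.9 CPM in the NC libraries, 16.6, 15 and 18.3 with shRNA1, 18.8, 19.8 and 19.9 with shRNA2 and 38.1, 43.1 and 18.8 with shRNA3. The shRNA1 and shRNA2 libraries and shRNA3 library 3 were all below NC, while shRNA3 library 2 lay within the NC range and library 1 just below it. RPL39L fell 2.7-fold with shRNA1 (log2 -1.43, SE 0.25, edgeR adjusted p = 0.000569) and 2.29-fold with shRNA2 (log2 -1.20, SE 0.25, edgeR adjusted p = 0.00192). With shRNA3 the value was -0.43 (edgeR adjusted p = 0.167), and -1.22 without libraries 1 and 2 (edgeR adjusted p = 3.88e-05).

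RPL39L held a smaller share of the RPL39 pair in every shRNA library than in NC, which is a description with no test. As a share of the pair per transcript length, which does not depend on how a library is scaled, RPL39L made up 7.97, 6.85 and 5.47% in NC, 1.22, 1.13 and 1.59% with shRNA1, 1.74, 2.01 and 1.86% with shRNA2 and 2.16, 2.06 and 2.21% with shRNA3. The highest shRNA library lay below the lowest NC library, and shRNA3 libraries 1 and 2 did not stand apart from library 3 on this measure. In plain counts the means were 11.9% in NC, 2.43% with shRNA1, 3.44% with shRNA2 and 3.93% with shRNA3. The coding sequences are shown because their likeness bears on whether reads can be told apart. They are identical at 148 of 156 bases, and capitals mark the 8 bases that differ (GRCh38, GENCODE release 29).
RPL39, coding bases 1 to 156, chromosome X: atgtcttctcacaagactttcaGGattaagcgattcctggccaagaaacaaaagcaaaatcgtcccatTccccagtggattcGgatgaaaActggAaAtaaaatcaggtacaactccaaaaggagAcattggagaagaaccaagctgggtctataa
RPL39L, coding bases 1 to 156, chromosome 3: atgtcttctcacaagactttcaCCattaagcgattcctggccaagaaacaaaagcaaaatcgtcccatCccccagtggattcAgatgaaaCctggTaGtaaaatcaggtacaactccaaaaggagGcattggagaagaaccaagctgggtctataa
How reads that match both genes were assigned is not given in the sources used here.

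RPL3L, the muscle paralogue of RPL3 (ENSG00000140986, chr16:1943974-1957606, minus strand), was barely detected, at 1.61, 1.53 and 2.03 CPM in the NC libraries, 0.248, 0.387 and 0.103 with shRNA1, 0.234, 0.451 and 0.332 with shRNA2 and 0.296, 0.655 and 0.248 with shRNA3. All shRNA libraries were below NC, and it fell with each hairpin (log2 -2.76, -2.32 and -2.12, edgeR adjusted p = 0.000793, 0.00230 and 0.00406) from a handful of counts, 32, 31 and 40 in NC and 5, 8 and 2 with shRNA1. RPS27L, a p53 target and paralogue of RPS27, had 30.4, 31.5 and 32.2 CPM in the NC libraries, 21.8, 22.7 and 25.7 with shRNA1, 19, 19.4 and 19.4 with shRNA2 and 30.2, 35.6 and 16.7 with shRNA3. It fell with shRNA2 (log2 -0.70, edgeR adjusted p = 0.0230), with -0.42 for shRNA1 and -0.19 for shRNA3, and the differences between the hairpins did not pass. The shRNA2 call was lost without NC library 2 or 3 or any 1 of the shRNA2 libraries. Without shRNA3 libraries 1 and 2 the RPS27L values were -0.41, -0.69 and -0.88 with shRNA1, shRNA2 and shRNA3. RPL36AL, which is expressed beside RPL36A, passed in no comparison with NC (log2 fold change -0.01, SE 0.18, edgeR adjusted p = 0.953). At 105 CPM per kb it had the highest level per length of the paralogues. Its share of the pair per length was 27.2, 34.6 and 37.4% in NC and lower in every shRNA library. It was 25.1, 24.6 and 24.4% with shRNA1, 21.6, 20.3 and 21.3% with shRNA2 and 18.2, 21.4 and 21.3% with shRNA3. Reads of RPL36A that were assigned to its pseudogenes are missing from this share.

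RPL26L1, paralogue of RPL26, stood at 27.4, 27.2 and 27.1 CPM in the NC libraries, 42, 42.2 and 41 with shRNA1, 30.8, 29.1 and 30.2 with shRNA2 and 21.4, 26.1 and 32.5 with shRNA3. It was highest with shRNA1, whose libraries overlap no other group, and it rose there (log2 0.62, SE 0.16, edgeR adjusted p = 0.00533). Its share of the pair per length was 3.02, 2.99 and 2.92% in NC, 5.45, 5.1 and 5.51% with shRNA1, 4.79, 4.71 and 4.73% with shRNA2 and 2.14, 2.54 and 5.48% with shRNA3, so shRNA3 library 3 sat with the shRNA1 and shRNA2 libraries while libraries 1 and 2 were below NC. RPL22L1, paralogue of RPL22, was called higher with shRNA3 (log2 1.10, edgeR adjusted p = 0.0248), from 21.6, 21.7 and 26.1 CPM in NC to 64.2, 66.4 and 18.7 CPM. The rise lay in libraries 1 and 2, and without them the value was -0.28 (edgeR adjusted p = 0.277).

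RPL7L1, a nucleolar relative of RPL7 that works in ribosome assembly, was split widely within shRNA3. It stood at 188, 179 and 179 CPM in the NC libraries, 388, 393 and 386 with shRNA1, 306, 288 and 299 with shRNA2 and 76.5, 70.3 and 340.1 with shRNA3. The shRNA1 and shRNA2 libraries and shRNA3 library 3 were all above NC, and shRNA3 libraries 1 and 2 were below every other library. With all libraries no comparison with NC passed (shRNA1 log2 1.10, SE 0.47, edgeR adjusted p = 0.0654). When shRNA3 libraries 1 and 2 were left out, RPL7L1 was higher with shRNA1 at 1.11 (edgeR adjusted p = 2.07e-08) and with shRNA2 at 0.73 (edgeR adjusted p = 1.2e-06). In that pair of libraries RPL7L1 was lower than in shRNA3 library 3, whereas all 77 canonical genes were higher.

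**Figure D3:**
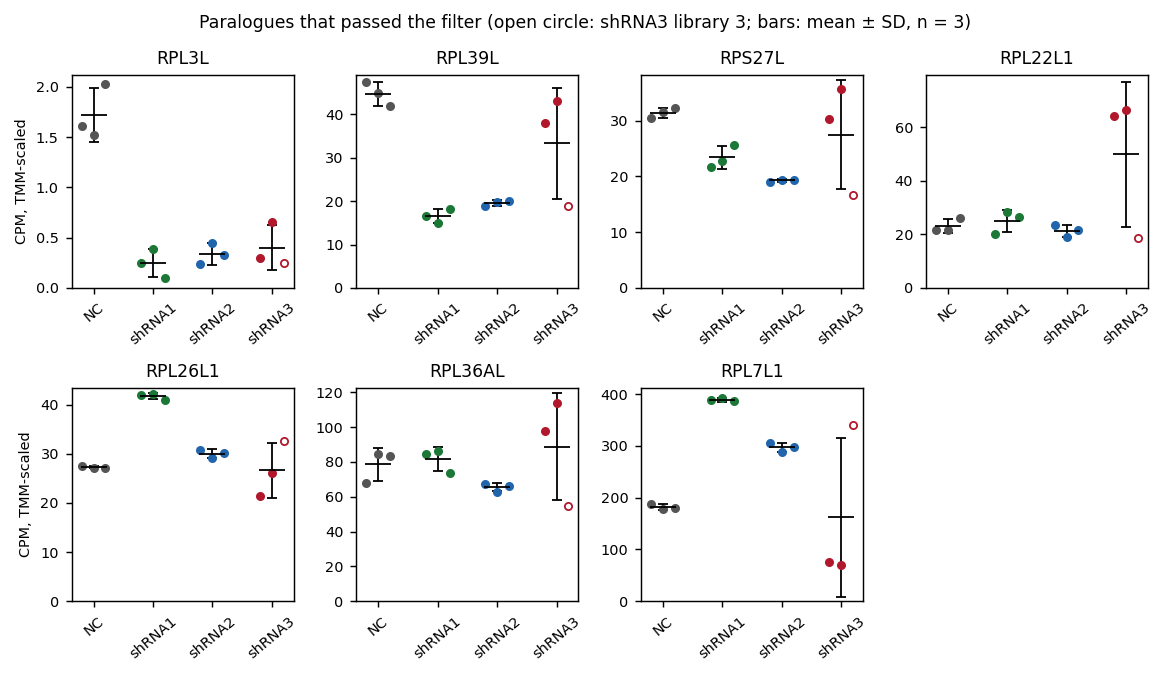
TMM-scaled CPM of the 7 tested paralogues, 1 panel for each gene, with 1 point for each library, an open circle for shRNA3 library 3 and bars at the mean ± SD of each group (n = 3). RPL3L and RPL39L lie lower with shRNA1 and shRNA2 than in NC, and RPL7L1 and RPL22L1 split shRNA3 libraries 1 and 2 from library 3 in opposite directions.

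Of the 3 readthrough genes, RPS10-NUDT3 was higher with shRNA1 (log2 2.22, edgeR adjusted p = 6.68e-05) and shRNA3 (log2 1.04, edgeR adjusted p = 0.00909), at 2.72, 4.53 and 5.57 CPM in NC and 21.2, 16.6 and 22.1 CPM with shRNA1. The shRNA3 call was lost at 0.63 without shRNA3 libraries 1 and 2 (edgeR adjusted p = 0.106). RPL17-C18orf32 and RPL36A-HNRNPH2 passed in no comparison with NC, the second with values from 9.22 to 94.2 CPM within NC. Their exons are shared with the ribosomal protein gene, so their counts are uncertain. RPS19BP1, which binds RPS19 and is also known as a cofactor of SIRT1, rose with shRNA1 (log2 0.71, edgeR adjusted p = 0.000907).

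The rise called for RPL9 was lost when the reads of its copies were added. RPL9 (ENSG00000163682, chr4:39452521-39458949, minus strand), a large-subunit protein near the stalk base, stood at 427, 405 and 370.2 CPM in the NC libraries, 878, 883 and 864 with shRNA1, 779, 773 and 774 with shRNA2 and 1086, 1149 and 734 with shRNA3. Its shRNA libraries all lay above NC (log2 1.13, 0.95 and 1.30, edgeR adjusted p = 0.000162, 0.000546 and 6.39e-05). Its copy RPL9P9 on chromosome 15 (ENSG00000237550, chr15:82372196-82372912, minus strand) is identical to the RPL9 transcript at 620 of 621 aligned bases, and its annotated transcript lacks 81 bases of the RPL9 coding sequence, which follow coding base 388. RPL9P9 had 16524, 16213 and 17285 counts in NC, 3113, 3181 and 2926 with shRNA1, 2621, 2640 and 2739 with shRNA2 and 2626, 2854 and 2884 with shRNA3, so it took more reads than RPL9 itself in NC and far fewer in every shRNA library. All copies together held 67.6, 14.9, 16.3 and 15.6% of the RPL9 family counts in NC, shRNA1, shRNA2 and shRNA3. When gene and copies were summed, RPL9 rose with no hairpin and fell with shRNA2: the log2 fold changes were -0.27, -0.42 and -0.08 (edgeR adjusted p = 0.178, 0.0476 and 0.704). The stretch around the 1 differing base is shown, with that base in capitals, since it is the single mismatch of the aligned bases.
RPL9, coding bases 326 to 388, chromosome 4: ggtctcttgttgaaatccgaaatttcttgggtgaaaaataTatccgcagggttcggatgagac
RPL9P9, transcript bases 350 to 412, chromosome 15: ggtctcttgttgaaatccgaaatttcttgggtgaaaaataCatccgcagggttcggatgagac
A read within the aligned bases that covers neither this base nor the gap fits both transcripts, and whether the change in RPL9 lies in the cells or in the assignment of reads cannot be told apart from these counts. RPL9 also shares 12.5% of its exon bases with LIAS on the other strand.

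**Figure D4:**
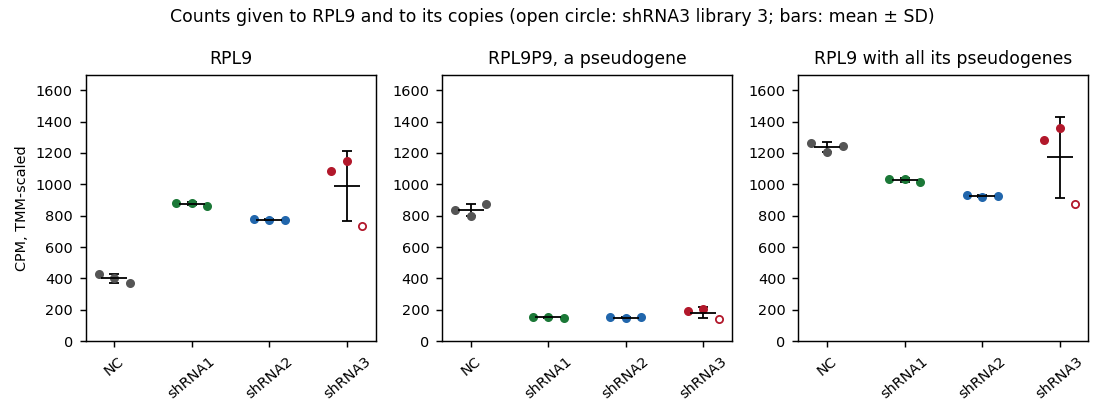
TMM-scaled CPM of RPL9, of its pseudogene RPL9P9 and of RPL9 with all its pseudogenes in each of the 12 libraries, on linear axes that start at 0, with bars at the mean ± SD of each group (n = 3) and an open circle for shRNA3 library 3. RPL9P9 goes from 798 CPM or more in NC to 208 CPM or less in the shRNA libraries while RPL9 is higher in every shRNA library, and the summed values lie closer together.

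Sums with the copies were also made for the other genes. RPL29P4, a copy of RPL29 on chromosome 6, had 12, 19 and 7 counts in NC and between 1571 and 2215 in the shRNA libraries, and the RPL29 family value was 1.0 for the mean against 0.82 for the gene alone. RPL36A, which alone was called higher for the mean (log2 0.80, edgeR adjusted p = 0.00565), stood at 0.13 with its copies (edgeR adjusted p = 0.561), whose share of the family was 56.2, 38.9, 26.1 and 29% in NC, shRNA1, shRNA2 and shRNA3. With copies included the mean log2 fold change was 1.38 for RPL14, 1.17 for RPS4X, 0.95 for RPL32, 0.93 for RPSA, -1.41 for RPS3 and -1.03 for RPS6. The pseudogenes themselves, of which 663 of 1601 had any count and 53 were tested, gave 4 higher (7.55%, beside 27.9% of all genes) and 20 lower (37.7%, beside 32.2%) for the mean. Overlap with genes on the other strand was 7.65% of exon bases for RPL15 (NKIRAS1) and 9.32% for RPL32 (CAND2).

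Canonical genes are scattered over the genome, and their changes varied with those of the genes around them. For each canonical gene, the other tested protein-coding genes within 5 megabases to either side were taken as neighbours. Across the 77 genes, the log2 fold change for the mean of the hairpins had a Pearson correlation of 0.581 (Spearman 0.476) with the median of the neighbours, beside 0.191 (Spearman 0.288) over 13858 other protein-coding genes. The values were 0.535 with windows of 2 megabases (73 genes with enough neighbours) and 0.650 with 10. Genes of 1 stretch share neighbours and all points share the same libraries, so these correlations describe genes and carry no test. Of the 25 canonical genes called for the mean, 21 had a neighbour median of their own sign, and the other 4 were RPL9, RPL28, RPL36A and RPS24. Over all 77 canonical genes, called or not, 54 shared the sign (70.1%), beside 61.1% of the 13858 other protein-coding genes. With windows of 2 megabases 57.5% of the 73 canonical genes did. No such share is given for called genes outside the family.

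The short arm of chromosome 3 holds 5 of the 10 genes that rose with all hairpins. Around RPL14, 34 of 52 neighbours rose and 7 fell, with a median log2 fold change of 0.90. The neighbours of RPL15 had a median of 1.10 (14 of 18 neighbours rose and 0 fell), those of RPL32 1.04 (47 of 69 neighbours rose and 7 fell), those of RPSA 0.86 (27 of 40 neighbours rose and 7 fell) and those of RPL29 1.05 (92 of 135 neighbours rose and 15 fell). RPL24 and RPL35A, on the long arm of the same chromosome, lie among genes with medians of -0.69 and -0.37 and did not pass (log2 0.21 and -0.12, edgeR adjusted p = 0.210 and 0.592). Of the 7 canonical genes on chromosome 3, 5 were called higher for the mean and 0 lower, beside 38.9% and 32.4% of the 772 other genes tested there.

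RPS3 and RPS6, which fell with all hairpins, sat in falling surroundings. Around RPS3 on chromosome 11, 1 of 72 neighbours rose and 54 fell, with a median of -1.12. Around RPS6 on chromosome 9, 1 of 22 neighbours rose and 15 fell, with a median of -1.16. RPL11, which fell for the mean, also had neighbours with a negative median (-0.37), while RPL28 fell (-0.75) among neighbours at 0.17 (55 of 163 neighbours rose and 36 fell). RPL36A rose (0.80) among neighbours at -0.35 (3 of 33 neighbours rose and 14 fell), and RPS24 (0.55) among neighbours at -0.09. RPL9 had neighbours at -0.63 (6 of 29 neighbours rose and 16 fell) while the gene was called higher, and its family sum at -0.25 lay on the side of the neighbours. RPS4X, RPS26 and RPL39 rose by more than their neighbours, whose medians were 0.43, 0.28 and 0.57. On chromosome X, 3 of 4 canonical genes were called higher for the mean (beside 37.7% of other genes there), with RPL36A losing its call once copies were summed. On chromosome 4 it was 3 of 3 (beside 49.4%), RPL9 among them. Chromosome 19 has the most, 12, with medians of -0.32, -0.11 and 0.45 for shRNA1, shRNA2 and shRNA3.

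**Figure D5:**
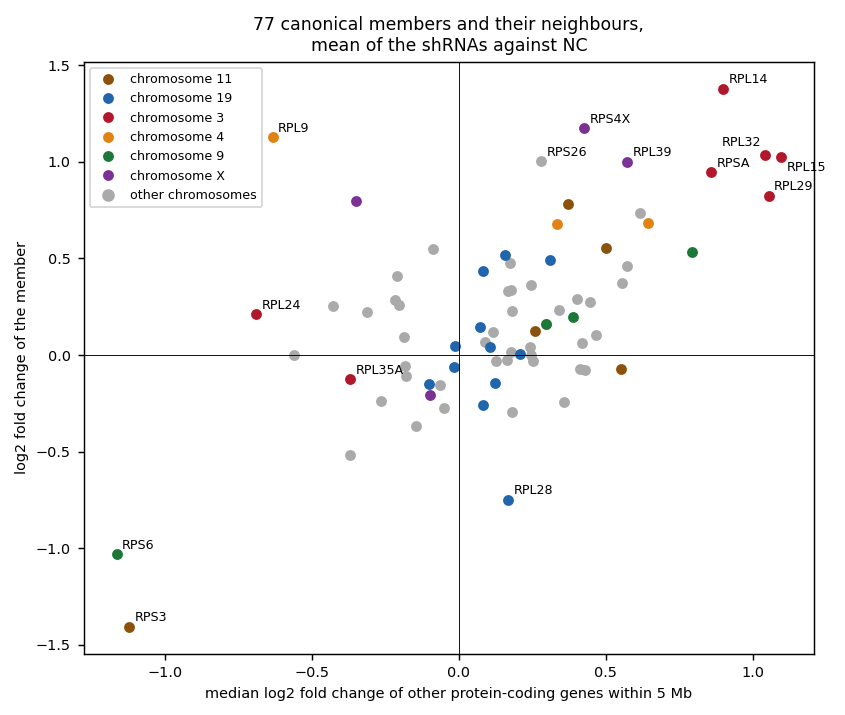
Log2 fold change of each canonical gene with the hairpins averaged, against NC (vertical axis), set against the median of its neighbours within 5 megabases (horizontal axis), 1 point for each of the 77 genes, coloured by chromosome for chromosomes 3, 4, 9, 11, 19 and X. RPS3 and RPS6 lie at the lower left, the chromosome 3 genes RPL14, RPL15, RPL29, RPL32 and RPSA at the upper right, and RPL9 at the upper left.

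Most tested genes that build ribosomes rose. Of 44 ribosome biogenesis factors, 31 rose (70.5%, beside 27.9% of all genes) and 0 fell for the mean of the hairpins by edgeR, with a median log2 fold change of 1.0, beside -0.03 over all genes. The counts were 40 higher with shRNA1 (90.9%, beside 26.8% of all genes), 28 with shRNA2 (63.6%, beside 24.6%) and 18 with shRNA3 (40.9%, beside 26.4%). Without shRNA3 libraries 1 and 2, 42 rose with shRNA3 (beside 28.1% of all genes). Without library 3, 18 rose and 15 fell (beside 32.3 and 40.7%), while 72 canonical genes rose in that fit. GAR1, a protein of the H/ACA particles that guide pseudouridylation, averaged 8.35 CPM ± 0.631 in NC, 52.3 ± 3.63 with shRNA1, 31.2 ± 2.5 with shRNA2 and 23.6 ± 8.64 with shRNA3 (mean and SD, n = 3 each) (log2 fold change 2.02, SE 0.20, edgeR adjusted p = 6.16e-06). RIOK1, a kinase in the last steps of small-subunit maturation, also rose (log2 fold change 1.73, SE 0.17, edgeR adjusted p = 4.75e-06).

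MYC was the regulator with the smallest adjusted p. It averaged 76.9 CPM ± 9.39 in NC, 484 ± 76 with shRNA1, 683 ± 11.1 with shRNA2 and 977 ± 364 with shRNA3 (mean and SD, n = 3 each). All shRNA groups were above NC (log2 fold change 3.16, SE 0.25, edgeR adjusted p = 8.68e-07). Of the 19 tested regulators of ribosomal protein synthesis, 13 rose (68.4%, beside 27.9% of all genes), among them the mTOR subunit MLST8 (1.08), and 1 fell, EIF4EBP2 (-0.82), a translation repressor that mTOR switches off. Of 14 genes of RNA polymerase I and its initiation factors, 5 rose (35.7%, not far from the 27.9%), led by the subunit POLR1H (2.79) and the factor UBTF (2.23), and 1 fell, TAF1C (-0.40). The canonical genes, beside these, had 21 of 77 higher.

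Of 13 chaperones and importers of single ribosomal proteins, 6 rose (46.2%) and 1 fell for the mean, beside 27.9% and 32.2% of all genes. IPO7, an importer (0.84), and GRWD1, which escorts RPL3 (1.70), led the rise, and AAMP (-0.31) was the falling one. Other TOP mRNAs went both ways, 6 of 19 higher (31.6%, near the background) and 3 lower (15.8%): the elongation factor subunit EEF1B2 (0.91) and BTF3 (0.63) rose, while the initiation factor subunit EIF3L (-0.66) and TPT1 (-0.78) fell. Of 13 TOP snoRNA host genes, 1 rose (7.69%) and 2 fell (15.4%): SNHG15 rose (1.75) and SNHG5 (-1.02) and SNHG8 (-0.49) fell. Some ribosomal proteins are made fused to ubiquitin or a ubiquitin-like protein: FAU, the source of RPS30, fell (-0.76), and RPS27A stood at 0.10 without passing. All values in this paragraph are log2 fold changes for the mean of the hairpins.

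Targets of p53, looked at because RPS27L is one and because RPL5 and RPL11 act on MDM2, had 8 of 20 higher (40%, beside 27.9% of all genes) and 5 lower (25%, beside 32.2%) for the mean. AEN, a nuclease (2.20 on the log2 scale), and the death receptor FAS (1.5) rose, and TP53INP1 (-4.44) and FDXR (-1.82) fell. Among the 78 mitochondrial ribosomal protein genes, 35 rose (44.9%) and 10 fell (12.8%), with a median of 0.31.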

How the data were processed

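RNA from 12 libraries of SCC-15 cells, 3 in each of 4 groups, was made from Trizol extracts with NEBNext Ultra kits and sequenced on a HiSeq 4000, per the labels' protocols. The authors deposited 1 table of estimated counts per gene, 13.8% of them not whole, for 61044 Ensembl IDs; how they were estimated is not given in the sources used here, although the submitters' processing notes name HISAT2, HTSeq 0.11.2 and GRCh38. Counts were rounded, and IDs were named and placed with GENCODE release 29. Genes were filtered with filterByExpr (minimum count 10, minimum total 15), scaled by TMM and tested in 1 model of the 4 groups with edgeR 4.0.16 (quasi-likelihood, robust, Benjamini-Hochberg adjustment over 17532 genes, 8 residual degrees of freedom, biological coefficient of variation 0.289). The fit was tested on simulated counts with less spread than these data and with changed genes in a single group. That test therefore does not cover the spread or the split shRNA3 group seen here. CPM are TMM-scaled, and a level per length divides them by transcript length.

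Members and lists were chosen with earlier results of these data known. The text names tested paralogues, canonical genes called in 1 direction for all 3 hairpins (up to 8 a direction by their smallest change, filled up to 3 by adjusted p), the 3 highest, 3 lowest and 3 most split within shRNA3, the 2 smallest adjusted p for each pair of hairpins, RPL5, RPL11, the stalk, and the 2 leading genes in each direction of each list. RPL29, RPS3A and genes that complete a count were added after their values were seen. Alternatives were other scalings, filters, DESeq2 1.42.0, a replicate block, fewer groups or libraries, a GC content and length correction (lowess span 0.3), other thresholds and, chosen after seeing the data, sums with pseudogenes, scaling to the canonical sum and other neighbour windows. Library totals were 17286934 to 19567192 counts, and precision also depended on the spread between the libraries of a group. No RefSeq protein table was used here. Single values of a few genes are not reported here, although counts over lists include them.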

Additional observations from a re-analysis of the deposited data

Results flagged for a closer look

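Each value here is a difference between 2 hairpins that passed edgeR's quasi-likelihood test (adjusted p under 0.05, log2 scale, 3 libraries a group) in a gene described above. For shRNA1 against shRNA3, RPL28 differed by -1.47, RPS28 by -1.04, RPL39L by -1.0, RPL13A by -0.96, RPS2 by -0.78, RPS3 by -0.71, RPL23A by -0.69 and RPL14 by -0.57, all lower with shRNA1. RPL26L1 was higher with shRNA1, by 0.64. Without shRNA3 libraries 1 and 2 the value became -0.47 for RPL28, 0.01 for RPL14, 0.05 for RPS3, 0.10 for RPL13A, -0.01 for RPS2, -0.20 for RPL39L, -0.22 for RPL23A, -0.26 for RPS28 and 0.34 for RPL26L1, and of these RPL28 alone kept its call (edgeR adjusted p = 0.0269, and 0.198 for RPS28). RPL12 differed by 0.80 for shRNA1 against shRNA2 and by -1.05 for shRNA2 against shRNA3, which became -0.26 without those libraries (edgeR adjusted p = 0.259). Leaving out 1 of the 12 libraries at a time lost the call in 11 fits for RPL14 and RPS3, in 10 for RPS2 and for each RPL12 value, in 5 for RPL13A, in 4 for RPL23A and RPL39L, in 3 for RPL26L1 and in none for RPL28 or for RPS28, whose call was lost on leaving out shRNA3 libraries 1 and 2 together. No group of 3 libraries was searched for single outlying samples.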

How the results depend on the processing

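The count of canonical genes called (adjusted p under 0.05, edgeR unless stated) depended on which libraries entered the fit. In the order shRNA1, shRNA2, shRNA3 and mean against NC, then shRNA1 against shRNA2, shRNA1 against shRNA3 and shRNA2 against shRNA3, the counts were 19, 16, 33, 25, 1, 16 and 1. Leaving out 1 library at a time gave 15 to 53, 11 to 48, 25 to 74, 18 to 54, 0 to 33, 2 to 76 and 0 to 75, and in every comparison the highest count was the one without shRNA3 library 3. Without shRNA3 libraries 1 and 2, the single library left being assumed to vary like the other groups, the counts were 50 for shRNA1, 47 for shRNA2, 58 for the mean and 31 for shRNA1 against shRNA2. With only the groups compared in the fit they were 43, 55 and 19 for shRNA1, shRNA2 and shRNA3 against NC, and 32, 0 and 0 for the 3 pairs (all genes, 71.8, 79.2 and 43.4%, and 41, 0 and 0%). Raw library totals gave 33 for shRNA1, 35 for shRNA2, 5 for shRNA1 against shRNA2 and 10 for shRNA1 against shRNA3 (all genes, 54.1, 50.6, 11.1 and 21.7%). Scaling to the canonical sum gave 42 for shRNA1, 43 for shRNA2, 46 for the mean, 13 for shRNA1 against shRNA2 and 9 for shRNA1 against shRNA3 (all genes, 47, 44.2, 51.6, 7.4 and 8.22%). The GC content and length correction gave 32, 26, 4 and 7 for shRNA1, shRNA2, shRNA1 against shRNA2 and shRNA1 against shRNA3 (all genes, 59.1, 54.8, 12.7 and 29.2%). For shRNA1 against shRNA2, DESeq2 size factors and sums with pseudogenes each gave 0 (all genes, 12.3% each). DESeq2's Wald test gave 2 there (all genes, 17.3%), and 18 for shRNA2 against shRNA3 (all genes, 20.4%). Requiring in addition a log2 change of 1 or more left 8, 5, 12 and 9 against NC, 0 for shRNA1 against shRNA2 and 3 for shRNA1 against shRNA3. Adjusted p under 0.01 left 10 for shRNA2 against NC and 0, 1 and 0 for the 3 pairs. For these stricter thresholds no share over all genes is given. The cause of these shifts was not tested.

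Same-numbered libraries did not deviate together on average (mean correlation of deviations -0.00434 over 18 pairs, 0.00186 over 36 pairs with different numbers). No pairing by number was seen on this measure, in which a small shared effect could go unseen. With the replicate block the counts were 0, 9 and 0 for the 3 pairs of hairpins (all genes, 8.54, 25.4 and 2.16%).

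Of 72 named single-gene results with a call, the direction turned in 9 instances over all alternatives. With pseudogenes summed in, RPL9 went to -0.27, -0.42 and -0.078 with the 3 hairpins and to -0.25 for the mean. Without shRNA3 libraries 1 and 2, RPL22L1 (-0.28) and RPL12 (-0.14) turned for shRNA3 against NC, and RPL14 (0.015), RPS3 (0.048) and RPL13A (0.10) for shRNA1 against shRNA3. RPL14, RPL15, RPL32, RPS3A, RPS4X, RPS6, RPS26 and RPSA kept their calls with every hairpin in all 69 alternative fits. RPS3 lost its shRNA3 call with only the groups compared.

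The share of counts in canonical genes, 6.42% with shRNA1 and 6.12% with shRNA2, became 6.60% and 6.42% without the 5 genes with the most counts, 6.53% and 6.26% without mitochondrial genes, and 6.52% with shRNA1 when pseudogenes were added.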
